A study of Mus musculus with 96 samples.

Results

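Coagulation factor genes of the mouse liver were examined as a set of 10: F12, F11, F9, F7, F10, F5, F2, F13b, Proc and Serpinc1. The platform annotation assigned them 16 of the array's 25697 probes, with 3 probes each for F11 and F12, 2 each for Proc and Serpinc1 and 1 for each other gene. The set was chosen by the low measured level of F11 in liver of SIRT1Tg/Tg mice against WT liver. That comparison therefore selected the genes, and its values are given as a description with no test. All 10 genes passed the detection filter.

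The study used 96 arrays of male mouse RNA, 6 for each of 4 conditions in liver, in skeletal muscle, in brown fat (BAT) and in epididymal white fat (eWAT). WT mice were C57/Bl6 animals on a low fat diet with free access to food. SIRT1Tg/Tg mice, read from the genotype label as carriers of a Sirt1 transgene on both alleles, had the same diet and access. The sources used here do not give their strain background or the promoter of the transgene. CR mice were WT animals kept for 3 months on a caloric restriction labelled EODF, an abbreviation left unexplained there, and EX mice were WT animals on the low fat diet with a running wheel for 10 weeks. All animals fasted for 12 hours and were killed at 8 a.m., and the sources used here do not give their ages. In bulk tissue, fewer cells of a type and less RNA per cell cannot be told apart.

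Clotting proceeds as a cascade in which each serine protease cleaves the inactive form of the next. Factor XII and factor XI start the contact, or intrinsic, branch and act through factor IX, factor VII starts the extrinsic branch with tissue factor, and both branches meet at factor X, which with its cofactor factor V releases thrombin from prothrombin. Thrombin makes fibrin, factor XIII cross-links it, and protein C and antithrombin restrain the cascade. Hepatocytes make most of these proteins, and liver-enriched factors such as HNF4, HNF1 and C/EBP are known to act on many of their promoters.

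The array liver_1953_SiRT1, labelled SIRT1Tg/Tg, stood apart from the other 23 liver arrays. Its mean intensity was 135, with 5841 probes detected, against 238 to 353 and 10215 to 12752 on the others. Sirt1, the gene that checks the label, read 5.77 to 6.30 on WT arrays (log2 normalised intensity) and 4.48, not detected, on liver_1953_SiRT1. The other 5 SIRT1Tg/Tg arrays were higher than every WT array. Over all 6 SIRT1Tg/Tg arrays the Sirt1 difference of 0.86 ± 0.32 did not pass (log2 difference ± SE, limma, adjusted p = 0.368), and without liver_1953_SiRT1 it was 1.37 ± 0.12 (limma, adjusted p = 4.32e-07, 5 against 6 arrays). Member differences in SIRT1Tg/Tg liver, and the other values that this array moves most, are therefore given with and without it. Animal numbers fell into a lower series, A, and a higher series, B, with 3 WT and 3 SIRT1Tg/Tg animals in each, all EX animals in A and all CR animals in B. The sources used here do not explain the numbering, so within-series values are given too. The labels end each array name with a number that 2 liver arrays share. It was read as the number of the slide, which the labels do not state. The labelled tissue held hepatocyte marker RNA at a similar summed level in both groups: the 14 markers that passed the filter summed to 16.9 to 17.0 on WT and 16.9 to 17.1 on SIRT1Tg/Tg arrays (log2 of the sum). Their mean level ran from 11.99 to 12.14 on WT and from 12.02 to 12.35 on SIRT1Tg/Tg arrays. By gene their differences ran from -0.22 to 0.82, with a median of 0.05. At an unadjusted p under 0.05 there were 4 of 14 (limma), against 10.2% of all features. Levels below are log2 normalised intensities of the brightest probe of a gene, and probes are not compared with each other in level.

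F11 encodes factor XI, the protease that activates factor IX. Its level on WT arrays was 8.94 at the lowest, 9.64 at the median and 9.76 at the highest. On SIRT1Tg/Tg arrays it was 8.13, 8.49 and 8.81, so that all 6 lay below the lowest WT array and the ranges did not overlap. The difference was -1.07 ± 0.19 (log2, limma estimate ± SE, 6 against 6 arrays), which puts SIRT1Tg/Tg liver at 47.7% of the WT level. Without liver_1953_SiRT1 it was -1.01 ± 0.20 and the ranges still did not overlap. Within series A the difference was -0.94 and within series B -1.20 (3 against 3 arrays each). The difference between the series was -0.26 ± 0.39 (limma, adjusted p = 0.911). Of 9973 features, 0 were past an adjusted p of 0.05 (0%) and 5.95% were at an unadjusted p under 0.05. This measure used the same arrays that chose F11, 3 per group in each series, and is no independent support. On the 2 slides, read from that number, that held 1 array of each group, F11 was lower in the SIRT1Tg/Tg array (log2 differences of -0.99 and -0.68). Both pairs crossed the number series, and the second used liver_1960_WT, the lowest WT array. With slide as a fixed term the F11 difference was -0.84 ± 0.34, where CR liver had -0.54 ± 0.37 and EX liver -0.45 ± 0.37.

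A lower F11 level was read by more than one probe. The second probe had 8.25, 8.98 and 9.15 on WT arrays and 7.34, 7.80 and 8.15 on SIRT1Tg/Tg arrays. These ranges did not overlap either, and the difference was -1.09 ± 0.18 (-1.02 ± 0.19 without liver_1953_SiRT1). The third probe lay near background, at 4.70 to 5.19 on WT and 4.22 to 4.84 on SIRT1Tg/Tg arrays, with 5 of 6 and 4 of 6 arrays detected. Its ranges overlapped and its difference was -0.40 ± 0.12 (-0.33 ± 0.11 without liver_1953_SiRT1). The 3 probes were read on the same RNA and are not replicates.

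**Figure D1:**
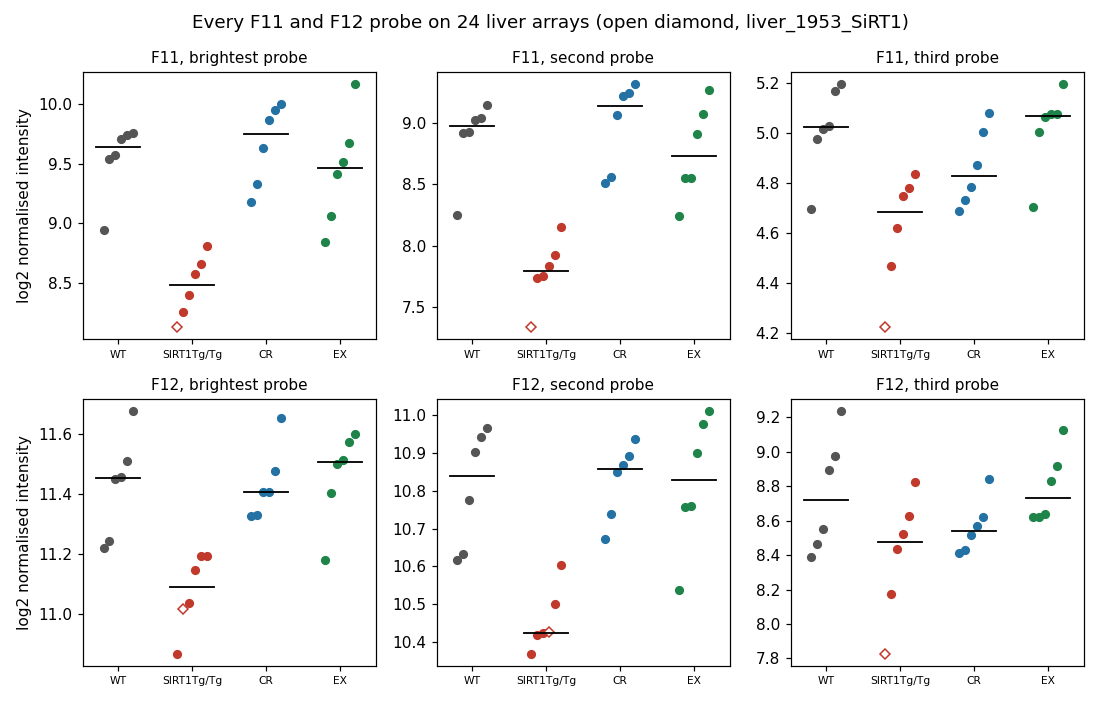
Log2 normalised intensity (y axis) of each F11 and F12 probe on the 24 liver arrays, by condition (x axis). Points are arrays, bars the median of 6, and the open diamond liver_1953_SiRT1. The SIRT1Tg/Tg points of the 2 brighter F11 probes and of the 2 brighter F12 probes lie below all WT points, whereas the third probe of each gene overlaps.

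F12 encodes factor XII, the protease that activates factor XI. It was the other member whose ranges did not overlap in SIRT1Tg/Tg liver. WT arrays read 11.22, 11.45 and 11.68 (lowest, median and highest) and SIRT1Tg/Tg arrays 10.87, 11.09 and 11.20. All 6 SIRT1Tg/Tg arrays were thus below the lowest WT array, with a difference of -0.35 ± 0.10, or 78.5% of the WT level. The second probe gave -0.35 ± 0.09, again with no overlap, and the third -0.35 ± 0.16 with overlap. Without liver_1953_SiRT1 the 3 probes gave -0.33 ± 0.10, -0.33 ± 0.09 and -0.23 ± 0.15. For the brightest probe, on all arrays, the difference was -0.52 in series A and -0.18 in series B, and the difference between the series of 0.34 ± 0.18 did not pass the test (limma, adjusted p = 0.815).

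Of the 10 members, 2 had ranges that did not overlap between WT and SIRT1Tg/Tg arrays, where 0.622% of all 9973 features did. In the fit over all features, 6 features, or 0.0602%, were under an adjusted p of 0.05, 1 of them F11, and 10.2% were under an unadjusted p of 0.05, with 4 members among them. Because F11 in this comparison chose the set, these counts are no test of F11 or of the members, and nothing is read from them. The count of 1 became 0 when any one of the WT arrays liver_1959_WT, liver_2226_WT, liver_2231_WT and liver_2232_WT, or of the SIRT1Tg/Tg arrays liver_1955_SiRT1, liver_2207_SiRT1 and liver_2222_SiRT1, was left out, while the F11 difference lay between -1.18 and -1.01 over the 12 omissions.

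The promoters of F11 and F12 are shown because these were the members whose SIRT1Tg/Tg and WT ranges did not overlap, and that of F9 because F9 was the member whose level varied most closely with F11 within conditions. Each run covers the 250 bases before the annotated start, on the strand of the gene, from RefSeq (GRCm38.p6). F11 lies at chr8:45262032-45262281 on the minus strand, F12 at chr13:55426805-55427054 on the minus strand and F9 at chrX:59999214-59999463 on the plus strand. Capitals mark matches, on either strand, to CAAAG (the core of an HNF4-type site), GTTAAT (the core of an HNF1-type site) and TTGCNNAA (a C/EBP-type site).
F11: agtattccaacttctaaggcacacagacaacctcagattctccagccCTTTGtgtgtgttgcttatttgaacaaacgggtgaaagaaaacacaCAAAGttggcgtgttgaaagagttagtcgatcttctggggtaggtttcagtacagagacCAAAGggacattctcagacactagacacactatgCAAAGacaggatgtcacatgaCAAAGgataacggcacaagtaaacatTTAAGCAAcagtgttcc
F12: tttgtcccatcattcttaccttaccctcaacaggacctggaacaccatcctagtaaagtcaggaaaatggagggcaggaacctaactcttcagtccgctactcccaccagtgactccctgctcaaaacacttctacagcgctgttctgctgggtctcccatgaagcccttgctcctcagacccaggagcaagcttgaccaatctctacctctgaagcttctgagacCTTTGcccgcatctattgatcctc
F9: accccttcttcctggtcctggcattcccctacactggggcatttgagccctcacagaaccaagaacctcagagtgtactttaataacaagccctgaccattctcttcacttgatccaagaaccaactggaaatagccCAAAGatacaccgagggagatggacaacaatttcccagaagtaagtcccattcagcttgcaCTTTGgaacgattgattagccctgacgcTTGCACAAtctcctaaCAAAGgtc

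Of the 10 genes, 9 matched the promoter table by symbol, all but Proc. F11 held 5 matches to CAAAG, F9 held 3 and F12 held 1. A match was present in 7 of the 9 promoters and in 48.6% of all 32851 promoters of that length, and 0.125% of all promoters held 5 or more. TTGCNNAA was found in the F11 and F9 promoters and in 9.56% of all promoters. GTTAAT was found in F13b alone among the 9, and in 6.43% of all. The motifs and the promoters to show were chosen after the levels were seen, and a match in letters is not evidence of a bound site.

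Among the remaining proteases of the intrinsic and extrinsic branches, the ranges overlapped and the SIRT1Tg/Tg differences over all arrays were smaller. Without liver_1953_SiRT1, F7 was farther from 0 than F12, at -0.37 against -0.33. F9, factor IX, read 11.51, 11.90 and 12.01 on WT and 11.03, 11.77 and 11.98 on SIRT1Tg/Tg arrays. Its difference of -0.19 ± 0.12 shrank to -0.06 ± 0.09 without liver_1953_SiRT1, which was its lowest. F7, factor VII, read 7.88, 8.07 and 8.37 on WT and 7.43, 7.82 and 8.07 on SIRT1Tg/Tg arrays. Here 4 of 6 SIRT1Tg/Tg arrays lay below the lowest WT array, and the difference was -0.31 ± 0.14, or -0.37 ± 0.15 without liver_1953_SiRT1, which was the highest of its group.

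F10, F5 and F2 encode the proteins of the common pathway. F10, factor X, read 11.18, 11.43 and 11.63 on WT and 10.79, 11.20 and 11.35 on SIRT1Tg/Tg arrays. All 6 SIRT1Tg/Tg arrays lay below the WT median and 3 below the lowest WT array, with a difference of -0.29 ± 0.11 (-0.32 ± 0.11 without liver_1953_SiRT1). F5, the cofactor factor V, read 7.24, 8.01 and 8.24 on WT and 4.69, 7.89 and 8.06 on SIRT1Tg/Tg arrays. The lowest of these was liver_1953_SiRT1, on which F5 was not detected, and the difference went from -0.54 ± 0.35 to -0.02 ± 0.14 without it. F2, prothrombin, read 12.16, 12.25 and 12.45 on WT and 11.89, 12.27 and 12.35 on SIRT1Tg/Tg arrays. Its difference was -0.04 ± 0.11, and 0.03 ± 0.10 without liver_1953_SiRT1.

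F13b encodes the carrier subunit of factor XIII. It read 9.92, 10.39 and 10.51 on WT and 9.19, 10.30 and 10.47 on SIRT1Tg/Tg arrays, and the groups overlapped. The difference of -0.18 ± 0.14 came to 0.00 without liver_1953_SiRT1 (SE 0.09).

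The 2 probes of each inhibitor differed in their readings. Proc, protein C, read 11.93, 12.04 and 12.45 on WT and 11.87, 11.94 and 12.23 on SIRT1Tg/Tg arrays, a difference of -0.15 ± 0.10 with overlap (-0.11 ± 0.10 without liver_1953_SiRT1). Its second probe gave -0.39 ± 0.11 (-0.37 ± 0.12 without that array), with 5 of 6 SIRT1Tg/Tg arrays below the lowest WT array. Serpinc1, antithrombin, read 7.82, 8.15 and 8.55 on WT and 7.40, 8.04 and 8.28 on SIRT1Tg/Tg arrays. The difference was -0.21 ± 0.15, or -0.11 ± 0.14 without liver_1953_SiRT1. The second Serpinc1 probe pointed the other way, at 0.49 ± 0.39 (0.44 ± 0.41 without that array), and varied widely within groups, from 6.65 to 9.01 on WT arrays alone.

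**Figure D2:**
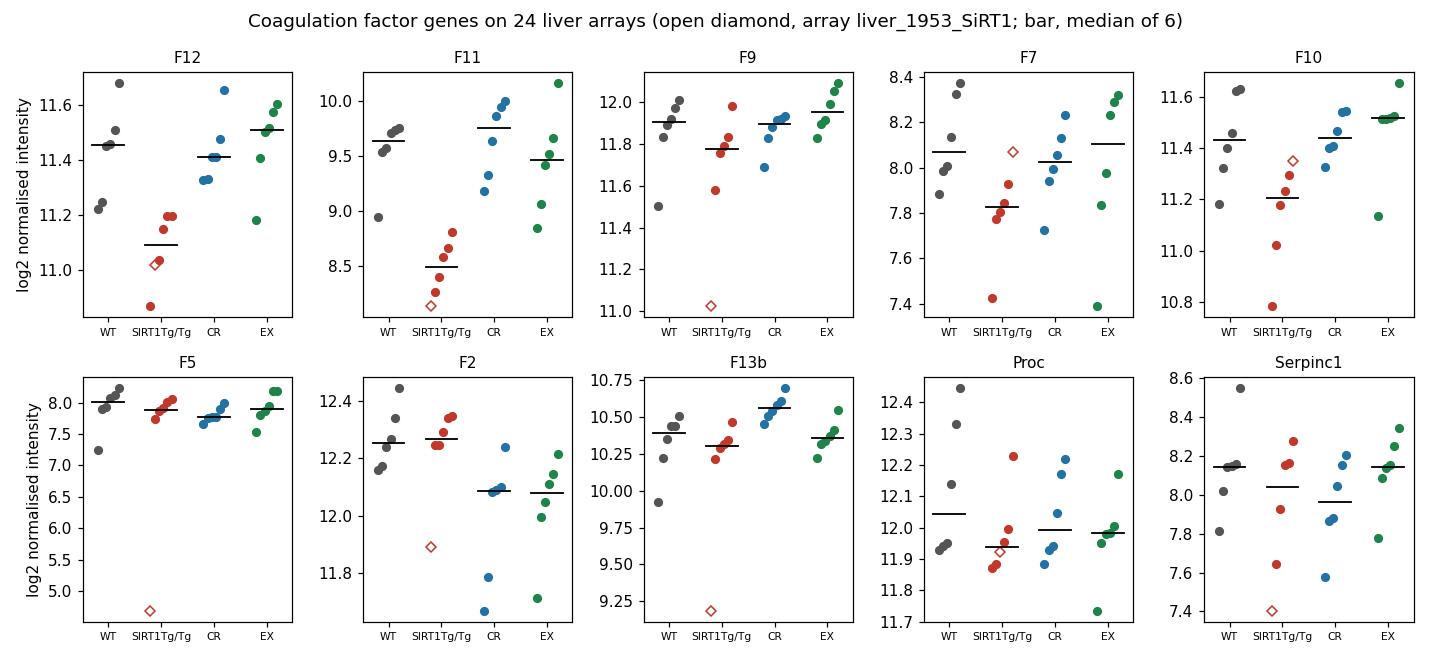
Log2 normalised intensity (y axis, a separate scale in each panel) of the brightest probe of each gene on the 24 liver arrays by condition (x axis). Points are arrays, bars the median of 6, and the open diamond liver_1953_SiRT1. F11 and F12 are the panels in which all SIRT1Tg/Tg points lie below all WT points, and the open diamond is the lowest SIRT1Tg/Tg point for F9, F5, F2, F13b and Serpinc1 as well as F11.

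Across the set, all 10 differences were below 0 in SIRT1Tg/Tg liver, where 54.7% of all features were, and their median was -0.25 against -0.02 over all features. Without liver_1953_SiRT1, 9 of 10 were below 0 and the median was -0.11, against -0.002 over all features. With slide as a fixed term, 6 of 10 were below 0, where the median over all features was 0.02. The share of all features below 0 was not taken in either of these fits. F11, F12, F10 and F7 had differences from -1.01 to -0.32 without that array, Proc and Serpinc1 both had -0.11, and F5, F9, F13b and F2 lay between -0.06 and 0.03. Nothing is read from these counts, for the reason given above.

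Caloric restriction and wheel running were compared with the same WT arrays, which they share with the comparison that chose the set. In CR liver, F11 read 9.18, 9.75 and 10.00 and overlapped WT, with 3 of 6 arrays above the highest WT array. Its difference of 0.04 ± 0.22 did not pass (limma, adjusted p = 0.993), with a 95% interval from -0.41 to 0.48. In EX liver, F11 read 8.84, 9.46 and 10.16, with a difference of -0.02 ± 0.22 (limma, adjusted p = 0.986) and an interval from -0.46 to 0.43. The EX arrays spread most, with 1 below the lowest and 1 above the highest WT array. On the single slide with 1 EX and 1 WT array the difference was -0.91. That pair was the lowest EX and the highest WT array, from different number series. The single slide with 1 CR and 1 WT array, also from different series, gave -0.07. With slide as a fixed term, F11 moved to -0.54 ± 0.37 in CR and -0.45 ± 0.37 in EX, and neither passed. By median, the order of F11 was CR, WT, EX and SIRT1Tg/Tg, and the first 3 overlapped one another.

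F12 also overlapped WT in both conditions, with 1 of 6 EX arrays below the lowest WT array. It read 11.33, 11.41 and 11.65 on CR arrays, a difference of 0.04 ± 0.11 (limma, adjusted p = 0.988), and 11.18, 11.51 and 11.60 on EX arrays, a difference of 0.00 ± 0.11 (limma, adjusted p = 0.998). The 95% intervals ran from -0.18 to 0.26 and from -0.22 to 0.22.

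No member passed an adjusted p of 0.05 in CR (limma, 0 of 10 against 0.271% of all features, with 1 member at an unadjusted p under 0.05 against 6.66%) or in EX (limma, 0 of 10 against 0.0201%, with 1 member at an unadjusted p under 0.05 against 8.63%). No member had ranges that did not overlap in either, where 1.31% of features did in CR and 0.301% in EX. Differences were below 0 for 5 of 10 members in CR, against 47.8% of features, and for 5 of 10 in EX, against 46.1%. The member differences ran from -0.46 to 0.10 in CR and from -0.24 to 0.35 in EX. Without liver_1953_SiRT1, which enters through the number series term, they ran from -0.23 to 0.19 and from -0.27 to 0.12. Their medians were then 0.02 and -0.01, against 0.02 and 0.01 over all features, with 4 and 6 of 10 below 0. At an unadjusted p under 0.05 there were 1 in CR and 2 in EX. The shares of all features for these counts were not taken without that array. F5 moved most, from -0.46 ± 0.39 to -0.20 ± 0.15 in CR and from 0.35 ± 0.39 to 0.09 ± 0.15 in EX. F2 came closest in CR. Its CR arrays read 11.67, 12.09 and 12.24, 5 of 6 below the lowest WT array, and the difference of -0.27 ± 0.12 did not pass (limma, adjusted p = 0.706). In EX it read 11.71, 12.08 and 12.22, again with 5 of 6 below the lowest WT array, at -0.24 ± 0.12 (limma, adjusted p = 0.606). Within series B the CR difference of F2 was -0.23, and within series A its EX difference was -0.28.

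The Proc difference in EX was -0.24 ± 0.11 (limma, adjusted p = 0.572), with EX arrays at 11.73, 11.98 and 12.17 against WT at 11.93, 12.04 and 12.45, so that 5 of 6 lay below the WT median. F13b in CR read 10.45, 10.56 and 10.70, and 4 of 6 arrays were above the highest WT array. With the number series in the fit the difference was 0.10 ± 0.16 (limma, adjusted p = 0.987), and 0.19 ± 0.10 without liver_1953_SiRT1. The second Serpinc1 probe read -1.08 ± 0.43 in EX (limma, adjusted p = 0.566), farther from 0 than any other member probe in CR or EX. Its WT arrays ran from 6.65 to 9.01, and the brighter Serpinc1 probe gave 0.05 ± 0.17 (limma, adjusted p = 0.946).

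**Figure D3:**
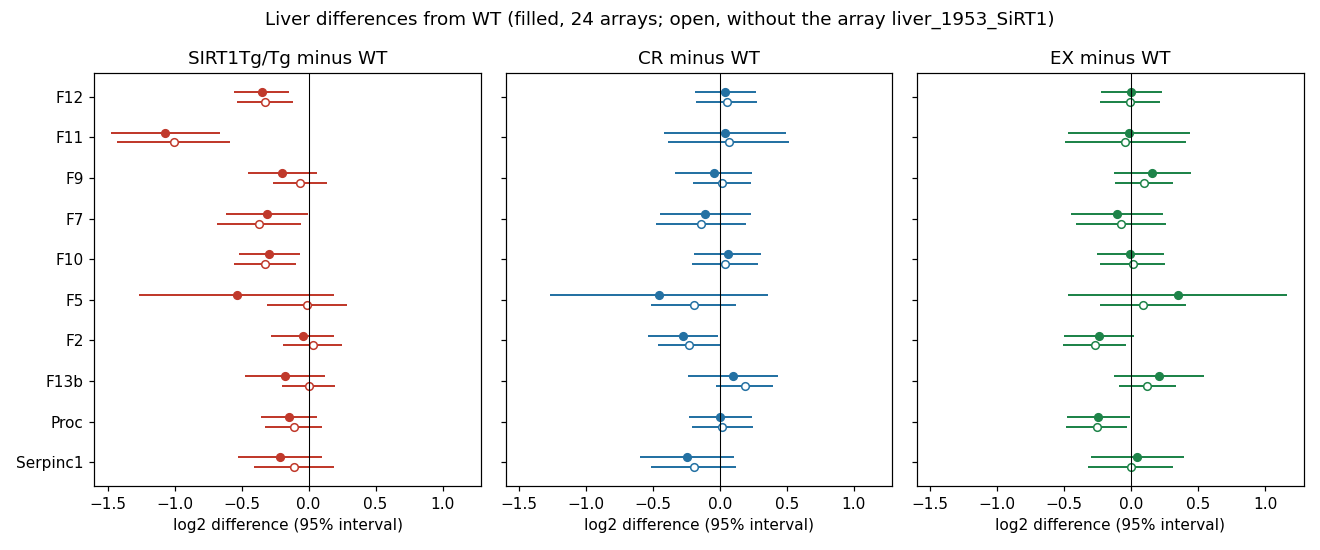
Log2 difference from WT (x axis) with 95% interval for each gene (y axis) in SIRT1Tg/Tg, CR and EX liver. Filled points use 24 arrays and open points leave out liver_1953_SiRT1. The SIRT1Tg/Tg panel is descriptive, since it chose the genes, and F11 is the farthest from 0 at -1.07, while in CR and EX the filled points lie between -0.46 and 0.35 and the open points between -0.27 and 0.19.

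The other coagulation and fibrinolysis genes were taken from a list of 32, of which 29 were on the array and 22 passed the detection filter. The 7 that did not pass were Fgb, F13a1, F3, Serpina5, Pzp, Procr and Plat. In none of the 3 comparisons did any of the 22 pass the test (limma, 0 of 22). At an unadjusted p under 0.05 there were 7 in SIRT1Tg/Tg, 0 in CR and 2 in EX, against 10.2%, 6.66% and 8.63% of all features. Without liver_1953_SiRT1 there were 4, 0 and 2 of the 22, and the shares of all features were not taken. Their median difference was -0.09 in SIRT1Tg/Tg, -0.03 in CR and 0.05 in EX liver, and without that array -0.04, 0.01 and 0.02, so that the CR median changed sign. In SIRT1Tg/Tg liver the smallest p-values were those of Proz, which encodes protein Z (-0.41 ± 0.13, and -0.35 without that array), of Serping1, the C1 inhibitor that also blocks factor XII (-0.28 ± 0.10, and -0.23), and of Serpina10, the protein Z-dependent inhibitor of factor X (-0.35 ± 0.13, and -0.30). F7, F10 and Proz are adjacent genes on chromosome 8 in the RefSeq table, and their differences in SIRT1Tg/Tg liver were -0.31, -0.29 and -0.41. Klkb1, prekallikrein, which lies next to F11 on chromosome 8, had -0.44 ± 0.24, and -0.17 without liver_1953_SiRT1. Of the 22, 1 had ranges that did not overlap between WT and SIRT1Tg/Tg arrays, where 0.622% of all features did. This was Kng1, which encodes kininogen, at 13.56 to 13.91 on SIRT1Tg/Tg and 13.93 to 14.02 on WT arrays. Its difference was -0.17 ± 0.07, and -0.10 without liver_1953_SiRT1. The nearest ends of its ranges were 13.91 and 13.926. The highest Kng1 value was 14.02 in WT, CR and EX alike, a level set by rank in the quantile normalisation.

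In CR liver the smallest p-values belonged to Fgg, a fibrinogen chain (-0.27 ± 0.14, limma, adjusted p = 0.803), Tfpi, the tissue factor pathway inhibitor (-0.54 ± 0.34, adjusted p = 0.878, and -0.35 without liver_1953_SiRT1), and Serping1 (-0.16 ± 0.11, adjusted p = 0.918). In EX liver they belonged to Serpinf2, the plasmin inhibitor (0.36 ± 0.12, limma, adjusted p = 0.528), Hrg, a plasma glycoprotein that binds plasminogen and heparin (-0.56 ± 0.24, adjusted p = 0.57), and Pros1, protein S, the cofactor of protein C (0.45 ± 0.22, adjusted p = 0.593). The 3 named in CR were below WT, those in EX had both signs, and none passed the threshold.

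Acute phase genes were lower at the median in SIRT1Tg/Tg liver. The list of 20 tested genes had a median of -0.44, against -0.02 over all features, with 18 below 0, against 54.7%, and 1 past the threshold, against 0.0602%. Without liver_1953_SiRT1, the highest SIRT1Tg/Tg array by mean level of this list, the median was -0.48, against -0.002 over all features. There 19 were below 0, and 2 passed the threshold, which 0.211% of all features did. The share of all features below 0 was not taken without that array. Over all arrays, EX liver had a median of -0.25 for this list, against 0.02 over all features. In EX 15 were below 0, against 46.1%, and 2 passed the threshold, against 0.0201%. CR liver had a median of -0.10, against 0.01, with 14 below 0, against 47.8%, and 0 past the threshold, against 0.271%. Orm2, an acute phase glycoprotein, was at -1.97 ± 0.34 in SIRT1Tg/Tg (-2.14 ± 0.34 without that array) and at -2.19 ± 0.38 in EX liver, where F11 had -0.02. Saa1, a serum amyloid, was at -1.96 ± 0.48 (-1.89 ± 0.51 without that array) and -3.06 ± 0.53. Both passed in EX (limma, adjusted p = 0.036 each). The shared WT arrays spread widely, from 9.27 to 12.52 for Orm2 and from 5.66 to 10.65 for Saa1. For both genes the WT arrays of series A lay above those of series B. The part of these acute phase genes in the level of F11 was not tested. Of markers of other cells, macrophage markers had a median difference of -0.40 over 7 genes, lymphocyte markers -0.35 over 4 and endothelial markers 0.25 over 10 in SIRT1Tg/Tg liver, with no gene past the threshold. Without liver_1953_SiRT1 these medians were -0.46, -0.35 and 0.21. Pancreas markers had -0.41 over 2 genes, and -0.54 without that array, where 1 of them passed the threshold, against 0.211% of all features. Adipocyte markers had 0.35 over 3 genes, and 0.18 without that array. Over all arrays, stellate and biliary markers had -0.002, erythroid markers 0.05 and the 1 skeletal muscle marker tested 0.06. The summed macrophage markers ran from 9.69 to 11.7 on WT and 9.67 to 10.7 on SIRT1Tg/Tg arrays, and their part in these values was not tested.

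Within conditions, the factors did not vary as one block. Correlations were taken over the 24 liver arrays after condition and number series were removed, and are descriptions that share array intensity and normalisation. The median Pearson r over the 45 pairs was 0.11, or 0.03 without liver_1953_SiRT1. F11 was closest to F9 (0.50, and 0.55 without that array) and to F13b (0.43 and 0.52), while its r with F12 was 0.06 and with F10 -0.13. F12, F10 and F7 were closer to one another, with 0.72 between F10 and F12, 0.64 between F7 and F10 and 0.54 between F7 and F12. F2 and Serpinc1 reached 0.79. The 0.92 between F5 and F13b fell to 0.65 without liver_1953_SiRT1.

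**Figure D4:**
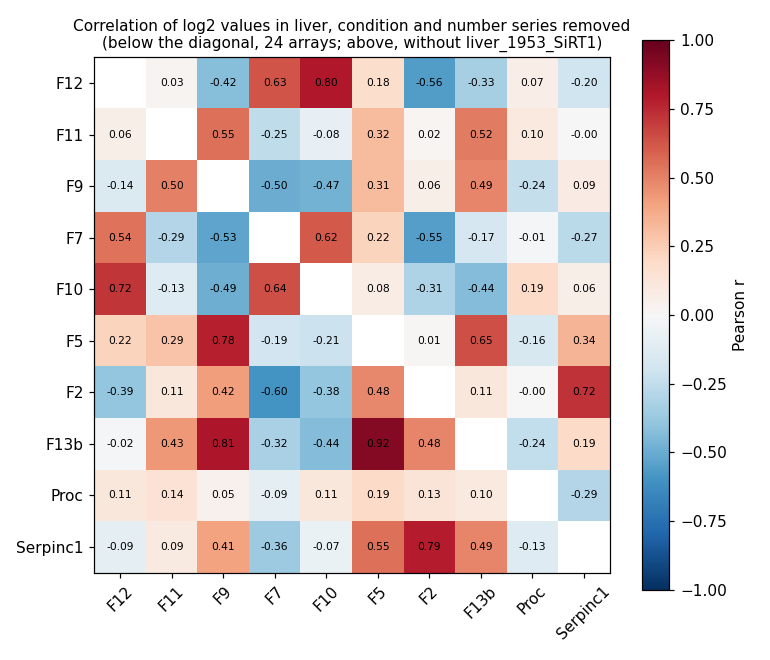
Pearson r between the log2 values of each pair of genes in liver after condition and number series were removed. Cells below the diagonal use 24 arrays and cells above it leave out liver_1953_SiRT1. F12, F7 and F10 form one group of high values, and F11 has its highest values with F9 and F13b.

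Over all 9973 features, the 5 whose log2 values were closest to those of F11 on the 24 arrays were Ces3b, Arhgef19, C2, Pla1a and Nat8f4, with r from 0.86 to 0.82. This measure includes the SIRT1Tg/Tg difference itself. After condition and series were removed, the 5 closest were Smarca2, Tuft1, Josd1, Ddx17 and Hyal2, with r from 0.75 to 0.73. None of these 10 features is in the coagulation lists.

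The liver was the tissue in which these genes were read. F11 had a deposited intensity of 125 to 1421 on the 24 liver arrays (median 840), was detected on all of them and was near background elsewhere. Its values spanned 84 to 104 in muscle (detected on 0 of 24 arrays), 88 to 109 in BAT (1 of 24) and 89 to 114 in eWAT (1 of 24). All other members but F5 were likewise detected on every liver array, and F5 on 23. In eWAT, F10 was detected on 23 of 24 arrays, at 125 to 178 on WT arrays (median 142), against medians of 124, 115 and 115 in SIRT1Tg/Tg, CR and EX. Proc was detected on 10 eWAT arrays and reached 231. Intensities of the tissues were deposited without normalisation and were not tested against each other.

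**Figure D5:**
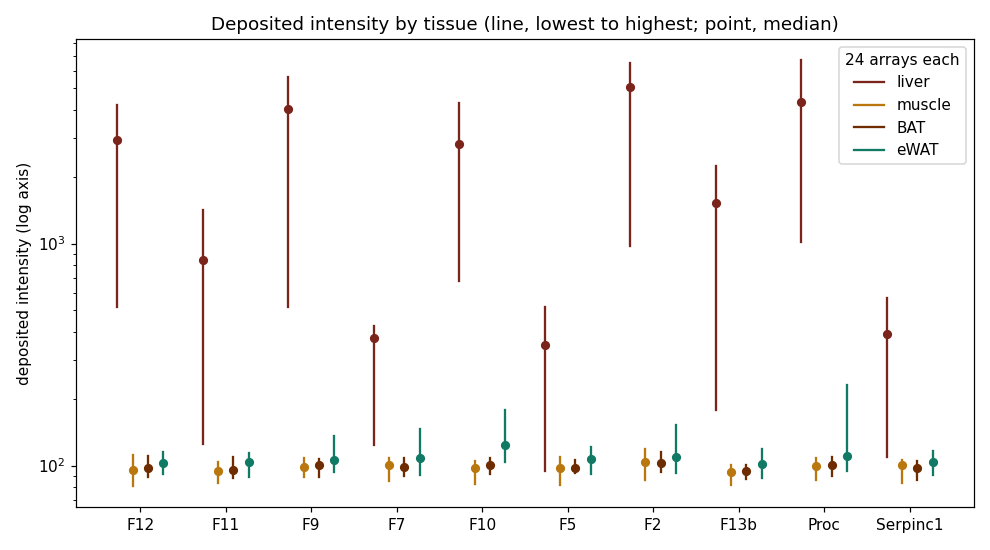
Deposited intensity (y axis, log scale) of the brightest probe of each gene in 4 tissues, as lowest to highest (line) and median (point) of 24 arrays. All liver medians lie above the other tissues, where most values are near 100, and the low ends of the liver lines come from liver_1953_SiRT1.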

How the data were processed

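The deposited intensity of each probe on each array is not normalised, per the file's name and values, and the submitters' processing notes name GenomeStudio and Partek without versions or roles. The deposited matrix, in log2, has a median of 6.72 in each column and served as an alternative only; its scale was read from the values, and the sources used here do not describe how it was made. The number of arrays limits the precision. Gene names came from the platform annotation, updated through RefSeq gene IDs.

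Intensities were background corrected per array by normexp with the mode of the log2 density as background (bandwidth 0.03) and an offset of 16, since no detection p-values were at hand, then quantile normalised over the 24 liver arrays. Probes above the upper 0.05 tail of that background on 6 or more arrays were kept (13206), and the brightest probe per gene gave 9973 features. limma 3.58.1 in R 4.3.3 fitted condition and number series, with Benjamini-Hochberg adjustment over all features. The number in an array name was taken as that of the animal, and the shared number that ends it as that of the slide; the labels state neither. In simulated data for the SIRT1Tg/Tg comparison, 91.5% of 200 genes changed 2-fold among 9973 were called, with 7 false calls. The simulation drew independent normal noise for each gene and array, with no array of low detection and no series difference. It checks the code and does not give the power of the real comparison, in which Sirt1 did not pass over all arrays.

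The members, lists and tests were chosen with earlier results of these data known. Named are all members, the other coagulation genes with the 3 smallest p per comparison, and the 5 features most like F11. Klkb1, as the neighbour of F11, and Kng1, for its ranges without overlap, were added after their values were seen. No sample or column was left out. Alternatives were the matrix values, no background correction, an offset of 50, median scaling, other detection filters, every probe as a feature, slide as a random block or fixed term, array weights, no series term, single series and single arrays left out.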

Additional observations from a re-analysis of the deposited data

Results flagged for a closer look

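In groups of 6 arrays, the gap from the lowest or highest array to its neighbour was compared with the whole range for the 10 genes in 4 conditions, and 8 of 40 groups exceeded Dixon's 95% critical value, where chance gives about 1 in 20. Of these, 3 were low values of the array liver_1953_SiRT1: F5 at 4.69, F2 at 11.89 and F13b at 9.19. A further 3 were low values of liver_1960_WT: F11 at 8.94, F5 at 7.24 and F9 at 11.51. The others were F10 at 11.13 on liver_1974_EX and Proc at 12.23, high, on liver_1955_SiRT1.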

How the results depend on the processing

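No member and no other coagulation gene was called in CR or EX under any of the settings run, and no other coagulation gene in SIRT1Tg/Tg. In SIRT1Tg/Tg, where F11 chose the set and its p is no test, the count of members under the threshold was 1 and became 0 under median scaling, with no detection filter, with slide as a fixed term, and in series A alone or series B alone. Leaving out single arrays gave 0 to 1. F11 stayed below WT in all 12 other settings, from -1.44 to -0.84. Of the 697 member values recomputed, 27 moved by over 1 SD; those of F11 in SIRT1Tg/Tg were compared only by their side of the threshold, which changed in 12. Over all features, the 6 called in SIRT1Tg/Tg became 0 to 60, the 27 in CR 0 to 166 and the 2 in EX 0 to 3, with array weights giving 60 and 166. Median scaling moved the median of all features to -0.19 in SIRT1Tg/Tg and 0.19 in EX, where F11 lay at -1.44 and 0.34. Slide as a random block had a correlation of 0.0871, and array weights gave liver_1953_SiRT1 0.0726. No paired analysis was possible because the conditions compared within liver share no animal number. The array liver_1953_SiRT1, labelled SIRT1Tg/Tg, limits every value that includes it, for genes of high signal such as F9 and F2 as well as of low signal. The few arrays that share a slide limit the separation of slide and condition, and the cause was not tested.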
